A study of Mus musculus with 6 samples.

Results

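The Fndc3 family was examined in mouse medulloblastoma, a malignant tumour of the cerebellum, for tumours labelled as carrying a mutant or a wild-type Eed gene. The family members were the transcripts whose gene symbol is Fndc3a, Fndc3b or Fndc3c1, which made 3 of the 52550 genes and 18 of the 131100 transcripts measured. They were chosen because Fndc3c1 was already known to stand among the genes with the greatest difference in these same libraries. The levels and fold changes of the members between the groups are therefore given as a description with no test. The groups were 3 Eed mutant medulloblastomas and 3 wild-type medulloblastomas, each a piece of tumour tissue from which total RNA was sequenced. The labels do not give the Eed allele, a Cre driver, the oncogenic lesion, the strain, the sex or the age. No label says that the 3 tumours of a group came from separate animals, so the p-values below measure only the spread between these samples. In bulk tumour RNA, fewer cells of a type and less RNA per cell cannot be told apart.

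The Fndc3 genes encode large membrane-associated proteins built mainly from repeated fibronectin type III domains, a fold also found in many cell surface and matrix proteins. In the mouse, Fndc3a is needed for the adhesion of developing spermatids to Sertoli cells, and males that lack it are sterile. Fndc3b, first described as a factor of adipocyte differentiation, promotes early fat cell formation and acts on bone morphogenetic protein signalling in cells that can become bone. Fndc3c1 is the X-linked member. Eed belongs to the core of PRC2, a Polycomb complex that keeps many developmental genes silent through histone methylation.

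Depth was even: the libraries held 26186236 to 26425111 estimated counts and detected 28424 to 28635 genes. Eed itself was at 32.6, 36.8 and 30.7 CPM (counts scaled by library size and edgeR's TMM factors) in the Eed mutant tumours and at 43.8, 30.1 and 35.6 CPM in the wild-type tumours. The groups overlapped, so the level of Eed does not check the labels. The deposited files also carry a code, of unstated meaning, shared by Eed mutant replicates 1 and 2 with wild-type replicate 2, and by Eed mutant replicate 3 with wild-type replicate 3. Wild-type replicate 2 stood at the end of the first principal component, at -49.2, against -26.1 and -9.36 in the other wild-type tumours. The Eed mutant tumours lay at 38.4, 18.5 and 27.8 on that axis.

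The sequence just before and after the annotated start is shown for the members found in the promoter table, since Fndc3c1 was well measured in Eed mutant tumours and near the detection limit in wild-type tumours and Fndc3b was well measured in both groups. Both windows come from RefSeq on GRCm38.p6, run 5′ to 3′ on the minus strand from 250 bases before to 50 bases after the start, and carry CG dinucleotides in capitals. Fndc3a had no entry. The Fndc3c1 window is chrX:106485180-106485479 and the Fndc3b window is chr3:27710403-27710702.
Fndc3c1: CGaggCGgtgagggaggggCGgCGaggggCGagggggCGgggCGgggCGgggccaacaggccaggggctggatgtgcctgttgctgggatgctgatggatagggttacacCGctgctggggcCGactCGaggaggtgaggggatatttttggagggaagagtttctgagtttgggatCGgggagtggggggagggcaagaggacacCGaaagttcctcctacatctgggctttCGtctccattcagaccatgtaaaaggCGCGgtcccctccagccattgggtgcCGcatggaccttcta
Fndc3b: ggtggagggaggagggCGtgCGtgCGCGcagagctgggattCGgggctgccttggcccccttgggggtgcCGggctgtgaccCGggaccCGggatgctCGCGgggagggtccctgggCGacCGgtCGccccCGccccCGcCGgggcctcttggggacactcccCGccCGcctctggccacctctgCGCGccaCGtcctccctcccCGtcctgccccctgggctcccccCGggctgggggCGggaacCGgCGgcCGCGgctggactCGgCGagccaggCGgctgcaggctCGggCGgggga

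The Fndc3c1 window held 17 CG dinucleotides and 63.3% G or C, and 68.6% of the 32851 promoter windows in the table held fewer CG. The Fndc3b window held 33 CG dinucleotides and 79.7% G or C, and 91.4% of the windows held fewer CG. The median window of the table had 7 CG dinucleotides and 52.7% G or C. Relative to the number that base composition alone gives, CG was present at 0.637 in Fndc3c1 and 0.695 in Fndc3b, against a median of 0.384. The letters GGGCGG, a GC box, were found 4 times in each window over both strands, and 35.7% of all windows held at least 1. The letters TATAAA were found in neither window on either strand, and 13.6% of all windows held them.

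A shorter, similar copy of Fndc3c1, Fnd3c2, lies 165 kb downstream on the X chromosome, at 106235246 to 106255376 on GRCm38. It falls outside the family by its symbol and was singled out after its values were seen, because reads could be shared between the copies. Their coding sequences were identical at 93.7% of the 2823 aligned bases, with 941 codons in Fnd3c2 and 1356 in Fndc3c1. The 60 coding bases in which they differ most are given, with the 14 differing bases in capitals. Both stretches are on the minus strand of GRCm38 and lie within 1 exon, Fndc3c1 at chrX:106445758-106445817 and Fnd3c2 at chrX:106252267-106252326.
Fndc3c1: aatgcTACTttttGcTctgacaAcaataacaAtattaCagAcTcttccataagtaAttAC
Fnd3c2: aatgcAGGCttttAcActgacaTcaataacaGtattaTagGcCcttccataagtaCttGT

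Of the 4829 words of 31 bases in the main Fndc3c1 transcript, 977 (20.2%) also occur in Fnd3c2 transcripts, and 1236 (25.6%) occur in some other gene. Besides Fnd3c2, these genes are Gm6325, Gm5133, Gm14852 and Gm14876. Fnd3c2 received 1.06 counts in Eed mutant replicate 1 and 0 in each of the other 5 libraries, where a floor of 3 counts would be about 0.114 CPM. Gm14876 had 1 count over the 6 libraries and the other 3 genes had 0. The counts of the shared words were thus assigned almost wholly to Fndc3c1 in every library. The members of the family stand farther apart, with 62.8% identity over the aligned coding bases between Fndc3a and Fndc3b, 62.0% between Fndc3a and Fndc3c1, and 59.8% between Fndc3b and Fndc3c1. No 31-base word of the main Fndc3b transcript and 1.19% of those of Fndc3a occurred in another gene. Their coding sequences hold 1198 codons in Fndc3a, 1207 in Fndc3b and 1356 in Fndc3c1.

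Fndc3c1 was near the detection limit in wild-type tumours and clearly expressed in every Eed mutant tumour. The gene (ENSMUSG00000033737.14) covers 106420041 to 106485401 on the minus strand of the X chromosome on GRCm38. It had 445, 351 and 825 estimated counts in the Eed mutant tumours, against 15, 8 and 27 in the wild-type tumours. The lowest Eed mutant tumour stood far above the highest wild-type tumour, by 13.1 times in CPM. Scaled, these were 17.1, 13.5 and 31.2 CPM in the Eed mutant tumours and 0.566, 0.303 and 1.03 CPM in the wild-type tumours. The means were 20.6 ± 9.36 CPM and 0.632 ± 0.366 CPM (SD, n = 3 each), a ratio of 32.6. Exact Poisson 95% intervals, which cover counting error only, ran from 315 to 390 counts for the lowest Eed mutant tumour and from 17.8 to 39.3 counts for the highest wild-type tumour.

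The edgeR fit over 19145 genes gave Fndc3c1 a log2 fold change of 5.02 (SE 0.492) and rank 3 among them. Hoxb8 (8.35), with no counts in wild-type tumours, and Dbx1 (5.19) stood above it, and Lmod3 (4.72) and Myh3 (4.56) just below. In the fit without wild-type replicate 2 the Fndc3c1 value was 4.68. On the log2(TPM + 1) scale, where the added 1 exceeds every wild-type level of the gene, the difference was 2.78, so that the size of the fold depends on the scale. Groups that do not overlap with the Eed mutant higher occurred in 13.1% of all genes tested. Since the gene was picked from this contrast, nothing is read from its own lack of overlap. Within the file code shared by 3 libraries, Fndc3c1 was at 17.1 and 13.5 CPM in the Eed mutant tumours and 0.303 CPM in the wild-type tumour. Within the other shared code it was at 31.2 CPM in the Eed mutant tumour and 1.03 CPM in the wild-type tumour, and with the code as a term the log2 fold change was 5.21.

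Being X-linked, Fndc3c1 was also set beside Xist, the RNA that coats the inactive X in female cells. Xist was at 1859, 1901 and 0.643 CPM in the Eed mutant tumours and 1.32, 0.795 and 1988 CPM in the wild-type tumours. Fndc3c1 was high in the Eed mutant tumours with and without Xist and low in the wild-type tumours with and without it. With the Xist level as a term, its log2 fold change was 5.04. Over the 623 tested genes of the X chromosome the median log2 fold change was -0.00, against -0.01 over all genes tested.

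Fndc3b was somewhat higher in Eed mutant tumours. The gene (ENSMUSG00000039286.12) covers 27416162 to 27711307 on the minus strand of chromosome 3. Its level was 29.7, 23.5 and 29.0 CPM in the Eed mutant tumours, against 20.9, 18.6 and 23.4 CPM in the wild-type tumours. Eed mutant replicate 2 and wild-type replicate 3 were almost level, so that the groups are separated by 1.00-fold in CPM and overlap in estimated counts, at 612 and 616. The means were 27.4 ± 3.39 CPM in Eed mutant tumours and 21.0 ± 2.44 CPM in wild-type tumours (SD, n = 3 each), a ratio of 1.31. The log2 fold change was 0.39 (SE 0.128), rank 1646 of 19145, and 0.31 without wild-type replicate 2.

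Fndc3a, the most abundant member, was at the same level in both groups within their spread. The gene (ENSMUSG00000033487.14) covers 72537946 to 72710003 on the minus strand of chromosome 14. It stood at 115, 117 and 111 CPM in the Eed mutant tumours and at 109.6, 112 and 118 CPM in the wild-type tumours. The groups overlapped, and the order of the libraries did not follow the genotype. The means were 114 ± 3.12 CPM and 113 ± 4.14 CPM in Eed mutant and wild-type tumours (SD, n = 3 each). The log2 fold change was 0.02 (SE 0.0564) in the counts and -0.03 on the log2(TPM + 1) scale, with the sign depending on the scale.

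On TPM, which corrects for transcript length and so allows genes to be compared, the order of the members' means differed by group. Only Eed mutant replicate 3 had Fndc3c1 above Fndc3b, and the other Eed mutant tumours kept the wild-type order. In Eed mutant tumours Fndc3a averaged 35.7 ± 2.16 TPM, Fndc3c1 8.54 ± 4.05 TPM and Fndc3b 7.06 ± 0.602 TPM (SD, n = 3). Fndc3c1 and Fndc3b did not differ there beyond their spread: Fndc3c1 was at 7.18, 5.36 and 13.1 TPM and Fndc3b at 7.58, 6.40 and 7.20 TPM. In wild-type tumours the order was Fndc3a at 36.6 ± 1.68 TPM, Fndc3b at 5.60 ± 0.376 TPM and Fndc3c1 at 0.313 ± 0.0833 TPM, with no overlap between neighbours in that order. The summed TPM of the family was 48.7, 49.9 and 55.3 in the Eed mutant tumours, against 40.7, 43.4 and 43.3 in the wild-type tumours. Fndc3c1 made up 14.7%, 10.7% and 23.7% of that sum in the Eed mutant tumours and 0.745%, 0.542% and 0.927% in the wild-type tumours. The share of Fndc3a was 69.7%, 76.4% and 63.3% in the Eed mutant tumours and 85.2%, 87.5% and 85.5% in the wild-type tumours. Eed mutant replicate 3 had the highest Fndc3c1 share and the lowest Fndc3a share.

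**Figure D1:**
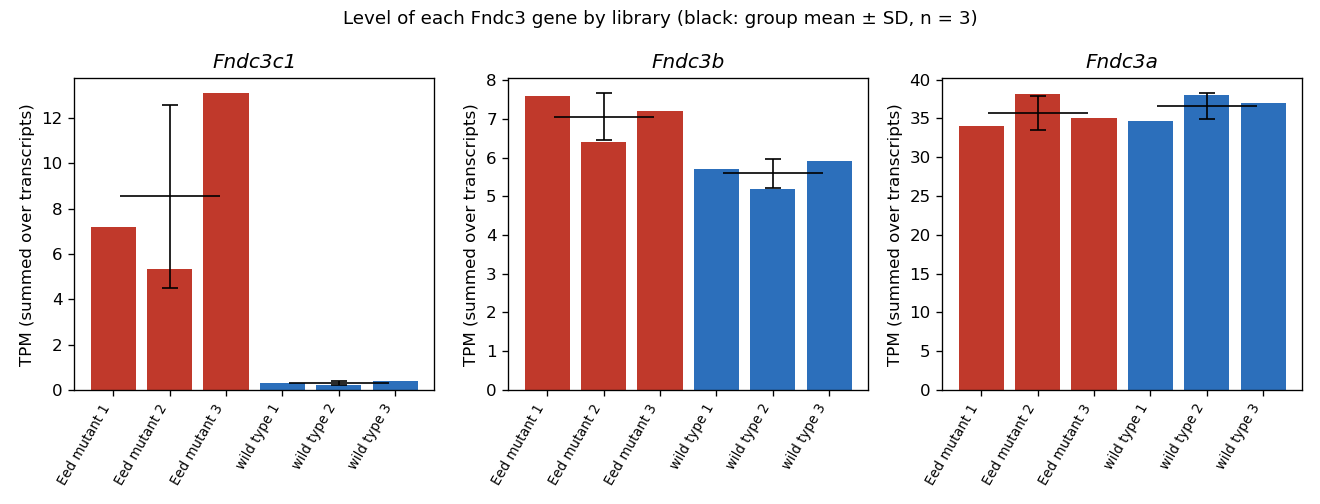
TPM of Fndc3c1, Fndc3b and Fndc3a in each library, 1 panel per gene with its own vertical axis starting at 0, Eed mutant tumours left and wild-type tumours right; black marks show the group mean and SD (n = 3 each). Fndc3c1 lies between 5.36 and 13.1 TPM in the Eed mutant tumours and is at most 0.401 TPM in the wild-type tumours, while Fndc3a overlaps between the groups.

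Which transcripts carried each gene was tested separately, because the share of a transcript within its gene does not depend on the level of the gene. A total of 4 transcripts held at least 5% of their gene's counts and were tested by exact two-sided permutation over the 6 libraries, which cannot go below p = 0.1, with Benjamini-Hochberg adjustment over the 4 tests. None passed 0.05, and the design could not have let any pass. Most estimated counts of Fndc3c1 were assigned to Fndc3c1-201, the full-length coding transcript of 27 exons. It held 98.9%, 99.7% and 99.4% of the estimated counts in the Eed mutant tumours and 98.1%, 85.9% and 100% in the wild-type tumours (difference 4.66 points, exact permutation p = 0.4, adjusted p = 0.4). The 85.9% rests on the 8 counts of wild-type replicate 2, without which the difference was 0.262 points, and without wild-type replicate 3 it was 7.33 points. On TPM its share was 88.0%, 96.3% and 91.3% in the Eed mutant tumours and 71.6%, 43.5% and 100% in the wild-type tumours, which overlapped. With so few wild-type counts, the makeup of the gene in wild-type tumours was poorly measured.

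Fndc3b split between a pair of transcripts that differ at their 5′ ends and carry the same coding exons. Fndc3b-201 and Fndc3b-204 share 25 exons. Fndc3b-201 alone has an exon at 27710346 to 27710439, and Fndc3b-204 alone has a short exon inside it, at 27710371 to 27710398, and a 5′ UTR exon at 27682738 to 27682814. Only 93 of 6845 words of 31 bases (1.36%) are found in Fndc3b-201 and not in Fndc3b-204, and 104 of 6856 (1.52%) the other way, so the estimated split rests on these few positions. Fndc3b-204 held 19.7%, 68.1% and 9.10% of the Fndc3b counts in the Eed mutant tumours and 9.39%, 0.948% and 0.897% in the wild-type tumours. Eed mutant replicate 2 stood far above the rest, and Eed mutant replicate 3 lay just below wild-type replicate 1. Wilson 95% intervals were 64.3% to 71.7% in Eed mutant replicate 2, 7.30% to 11.4% in Eed mutant replicate 3 and 7.23% to 12.1% in wild-type replicate 1. They treat every estimated count as surely assigned to its transcript, so they are too narrow for a split that rests on few positions. The mean shares were 32.3% ± 31.5 in Eed mutant tumours and 3.75% ± 4.89 in wild-type tumours (SD, n = 3 each, exact permutation p = 0.2, adjusted p = 0.267). The difference of 28.5 points dropped to 10.6 points without Eed mutant replicate 2. Fndc3b-201 mirrored it at 66.8% ± 31.9 in Eed mutant tumours and 95.1% ± 4.88 in wild-type tumours (SD, n = 3 each, exact permutation p = 0.2, adjusted p = 0.267), a difference of -28.3 points that became -10.2 points without that library.

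Fndc3a-201 held 98.5%, 97.9% and 98.6% of the Fndc3a counts in the Eed mutant tumours and 97.2%, 97.0% and 96.8% in the wild-type tumours. The groups did not overlap, and the difference of 1.34 points had the smallest p the design allows (exact permutation p = 0.1, adjusted p = 0.267). On TPM the shares of Fndc3a-201 overlapped, at 94.8%, 87.1% and 91.4% in the Eed mutant tumours and 91.2%, 85.0% and 91.1% in the wild-type tumours (exact permutation p = 0.5). Most of the remaining counts were Fndc3a-205, a 24-exon coding transcript that starts inside the gene, at 72602962. It fell under the 5% minimum and was tested only with a minimum of 1%, set after seeing the data. Its share was 1.25%, 1.40% and 0.790% in the Eed mutant tumours, against 2.44%, 2.18% and 2.63% in the wild-type tumours. Every Eed mutant tumour lay below every wild-type tumour, on 37.4, 42.6 and 23.2 estimated counts in the Eed mutant and 70.8, 64.3 and 81.4 in the wild-type tumours (exact permutation p = 0.1, adjusted p = 0.25 over 5 transcripts).

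**Figure D2:**
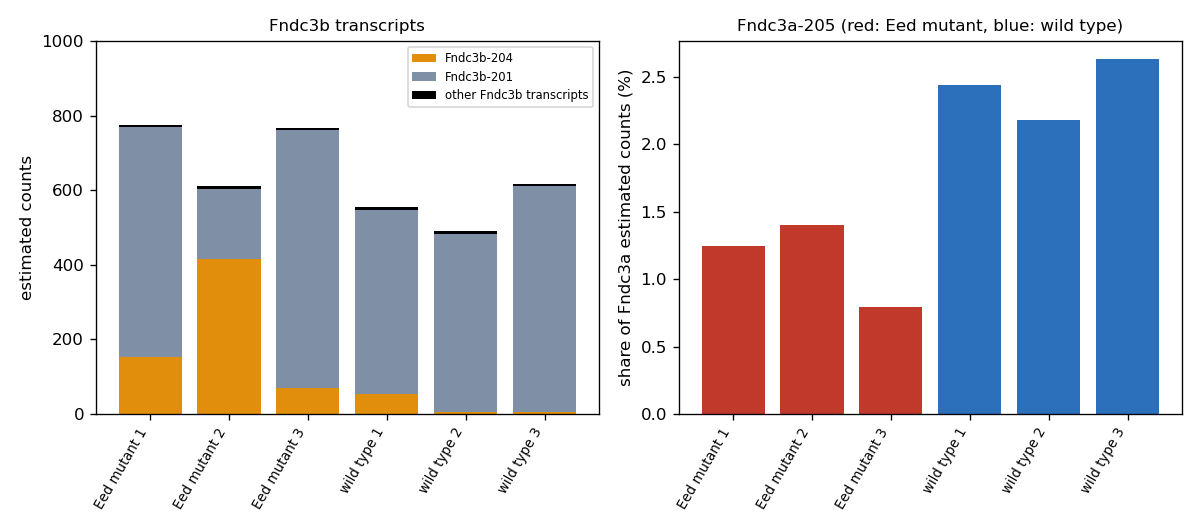
Left, estimated counts of the Fndc3b transcripts in each library as stacked bars; right, share of Fndc3a counts held by Fndc3a-205 in percent, Eed mutant tumours left of wild-type tumours in both. Fndc3b-204 holds 417 counts in Eed mutant replicate 2, and Fndc3a-205 stays at or under 1.40% in the Eed mutant tumours and at or above 2.18% in the wild-type tumours.

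To see whether genes around the members moved with them, the protein-coding genes within 1 Mb of each member were taken from the annotation by position. No neighbour passed the edgeR quasi-likelihood test at an adjusted p of 0.05. Of the 37 neighbours 25 were expressed enough to be tested. At an unadjusted p under 0.05 there were 4 higher and 2 lower, where 9.29% and 8.78% of all genes tested were, and DESeq2 called 2 higher and 0 lower, where 3% and 2.3% of all genes were. Over all 19145 genes edgeR called 0 in either direction (0% of genes), with 3459 genes (18.1%) at an unadjusted p under 0.05, while DESeq2 called 524 higher and 403 lower of the 17494 genes it tested. The groups did not overlap for 2 neighbours that were higher in Eed mutant tumours (13.1% of all genes tested) and 3 that were lower (11.9% of all genes tested). The median log2 fold change of the tested neighbours was 0.04.

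None of the 11 tested neighbours of Fndc3c1 approached its difference. Pgk1, a glycolytic enzyme downstream of it, was at 137 ± 5.43 CPM in Eed mutant tumours and 138 ± 7.53 CPM in wild-type tumours (SD, n = 3 each). The closest tested neighbour, the leukotriene receptor Cysltr1, 88.9 kb upstream, was low in both groups at 0.573 and 0.845 CPM in Eed mutant and wild-type tumours (log2 fold change -0.56, edgeR adjusted p = 0.391). The chromatin remodeller Atrx (0.05), Magt1 (0.22), the respiratory chain subunit Cox7b (-0.01), the copper transporter Atp7a (0.17), the innate immune receptor Tlr13 (-0.35), Taf9b (-0.12) and A630033H20Rik (0.24) had log2 fold changes within 0.35 of 0. The highest was Itm2a, a small membrane protein gene 912 kb upstream, at 82.7, 58.7 and 84.8 CPM in the Eed mutant tumours and 46.4, 43.0 and 54.2 CPM in the wild-type tumours. Its groups did not overlap, and its log2 fold change was 0.66 (SE 0.156, edgeR adjusted p = 0.151), called by DESeq2 (adjusted p = 0.0060) and not by edgeR. With the replicate number as a block Itm2a had an edgeR adjusted p of 0.0436 (log2 fold change 0.64). The replicate numbers were not shown to pair the samples, and over all genes that block called 189 higher and 84 lower, so this is not taken as support. The lysophosphatidic acid receptor gene Lpar4 was at 13.8 and 9.73 CPM in Eed mutant and wild-type tumours (log2 fold change 0.50, edgeR adjusted p = 0.259). Fgf16, Fnd3c2, Gm5127, Zcchc5, P2ry10 and Gpr174 were too low to test and Cypt2 had no counts.

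Around Fndc3b, 5 of 9 neighbours were tested. Pld1, a phospholipase that makes phosphatidic acid, was at 40.9, 19.9 and 31.7 CPM in the Eed mutant tumours and 22.7, 13.7 and 10.04 CPM in the wild-type tumours. The groups overlapped, and its log2 fold change of 0.99 (SE 0.350) was called by DESeq2 (adjusted p = 0.0398) and not by edgeR (adjusted p = 0.222). Nceh1, a cholesterol ester hydrolase, was at 21.8 ± 1.78 CPM in Eed mutant tumours and 27.1 ± 0.626 CPM in wild-type tumours (SD, n = 3 each), and did not pass edgeR (log2 fold change -0.31, adjusted p = 0.163). The remaining values were 0.25 for the cytokinesis factor Ect2, -0.55 for the death ligand Tnfsf10 and -0.30 for the kinase Tnik, none of them called. Around Fndc3a, 9 of 10 neighbours were tested, with log2 fold changes from -0.26 to 0.20. The lowest was Itm2b, at 336 and 402 CPM in Eed mutant and wild-type tumours (edgeR adjusted p = 0.231). The tumour suppressor Rb1 was at 0.04, and Cysltr2, Rcbtb2, Lpar6, Med4, Sucla2 and Gm21750 lay in between or at the upper end.

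**Figure D3:**
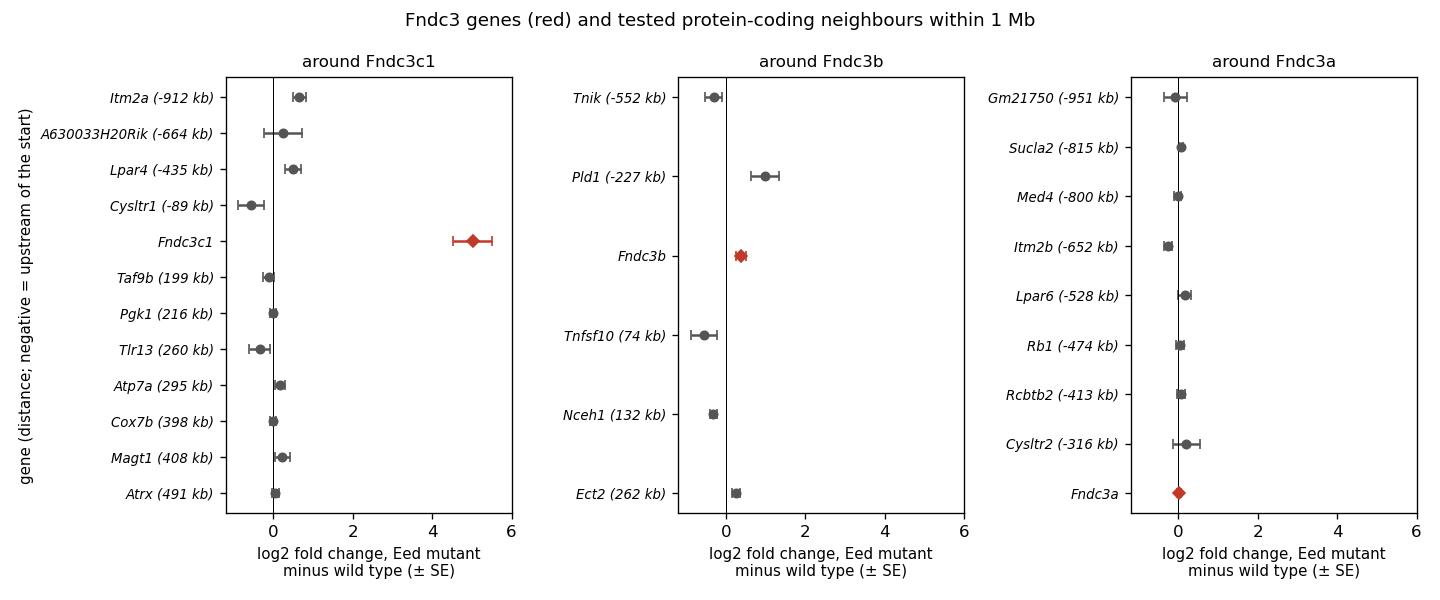
Log2 fold change (Eed mutant minus wild type) with its SE for each Fndc3 gene, red diamonds, and for all but 1 of the 25 tested protein-coding neighbours within 1 Mb, grey circles, ordered by position. Fndc3c1 stands at 5.02, while its neighbours lie between -0.56 and 0.66.

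The other genes named for fibronectin type III domains were read as a comparison group of 11, of which 9 were tested. No gene passed edgeR at an adjusted p of 0.05 or DESeq2, and at an unadjusted p under 0.05 there were 0 higher and 2 lower, where 9.29% of all genes tested were higher and 8.78% lower. Their median log2 fold change was -0.08, against -0.01 over all genes tested. The most different were Fsd1, at 15.3 ± 1.17 and 20.2 ± 2.56 CPM in Eed mutant and wild-type tumours (log2 fold change -0.40, edgeR adjusted p = 0.184), and Fndc5, which encodes the precursor of irisin. Fndc5 was at 18.7, 22.4 and 29.0 CPM in the Eed mutant tumours and 35.0, 42.4 and 28.6 CPM in the wild-type tumours (-0.59, edgeR adjusted p = 0.203), with an overlap between Eed mutant replicate 3 and wild-type replicate 3. Fndc9, next by p, had a log2 fold change of 0.45. A gain of the size seen in Fndc3c1 was thus found in no other tested gene of these names.

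Fndc3b is known from fat and bone cells, and 20 genes of adipocyte and osteoblast differentiation were examined, 15 of them tested. None passed edgeR, and 4 were higher and 1 lower at an unadjusted p under 0.05, where 9.29% of all genes tested were higher and 8.78% lower. DESeq2 called Runx2 higher and Bmp4 lower, where it called 3% of all genes higher and 2.3% lower. Runx2, the master regulator of osteoblasts, was at 9.64, 6.45 and 9.83 CPM in the Eed mutant tumours and 2.87, 2.08 and 2.05 CPM in the wild-type tumours. Its groups were well apart (log2 fold change 1.89, SE 0.232, edgeR adjusted p = 0.104, DESeq2 adjusted p = 5.19e-10). The transcription factor gene Cebpb was at 1.81 and 1.11 CPM and the receptor gene Bmpr1a at 200 and 164 CPM in Eed mutant and wild-type tumours, with edgeR adjusted p of 0.173 and 0.184. The ligand gene Bmp4 was at 0.762 ± 0.322 CPM in Eed mutant tumours and 2.41 ± 1.57 CPM in wild-type tumours (SD, n = 3 each, DESeq2 adjusted p = 0.0469). The median over the list was 0.07.

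For Fndc3a, 9 genes of spermatid to Sertoli cell adhesion were all tested. None passed edgeR, and 3 were higher and 0 lower at an unadjusted p under 0.05, where 9.29% of all genes tested were higher and 8.78% lower. DESeq2 called 1 higher, where it called 3% of all genes higher. That gene was Cadm1, a cell adhesion molecule also used by neurons, at 286 ± 20.4 CPM in Eed mutant tumours and 224 ± 22.2 CPM in wild-type tumours (SD, n = 3 each, log2 fold change 0.35, edgeR adjusted p = 0.159, DESeq2 adjusted p = 0.0369). The junction gene Nectin2 was at 15.5 and 10.1 CPM and the integrin subunit gene Itgb1 at 356 and 274 CPM in Eed mutant and wild-type tumours, with edgeR adjusted p of 0.227 and 0.231. The median over the list was 0.18. Among 19 germ line and testis genes 8 were tested, none passed edgeR or DESeq2, and at an unadjusted p under 0.05 there were 0 higher and 1 lower, against 9.29% and 8.78% of all genes tested. Their summed level was low and overlapped, at 7.49 to 9.56 CPM in Eed mutant tumours and 7.91 to 10.4 CPM in wild-type tumours. The RNA helicase gene Ddx4, a germ cell marker, was at 0.689 and 1.16 CPM in Eed mutant and wild-type tumours (edgeR adjusted p = 0.255). Piwil2 (log2 fold change 0.53) and Sycp1 (-0.30) did not pass, and Hormad1 had no counts.

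Markers of the granule lineage were present in every library. The 8 granule lineage markers summed to 3234 to 3999 CPM in Eed mutant tumours and 3566 to 4358 CPM in wild-type tumours, none at 0. Atoh1 (160 and 106 CPM in Eed mutant and wild-type tumours, log2 fold change 0.59) and Gli1 (238 and 187 CPM, 0.35) did not overlap. These 2 were higher at an unadjusted p under 0.05, where 9.29% of all genes tested were, and neither edgeR nor DESeq2 called any marker. The other markers overlapped, and the median log2 fold change of the list was -0.19. The summed markers of several other cell types also differed by genotype, and so moved with Fndc3c1, though not every marker in them did. The 10 skeletal muscle markers summed to 172, 133 and 398 CPM in the Eed mutant tumours and 57.2, 62.0 and 106 CPM in the wild-type tumours. Most of each wild-type sum was Myod1, at 50.3, 53.3 and 81.5 CPM. Myod1 overlapped between the groups, at 48.0, 67.5 and 71.9 CPM in the Eed mutant tumours (log2 fold change 0.02). Eed mutant replicate 3 was highest in both muscle markers and Fndc3c1, and wild-type replicate 3 was the highest wild-type tumour in both. No muscle marker was at 0 over all libraries, and their median log2 fold change was 3.51. Of the 10, 9 were higher at an unadjusted p under 0.05 and 7 by DESeq2, none by edgeR at an adjusted p. Over all genes tested, 9.29% were higher at an unadjusted p under 0.05, and DESeq2 called 3% higher. The 5 pericyte and smooth muscle markers summed to 235, 220 and 256 CPM in the Eed mutant tumours and 173, 181 and 201 CPM in the wild-type tumours. DESeq2 called 2 of them higher, Rgs5 and Acta2, where it called 3% of all genes higher. Most of each sum was Rgs5, at 173, 158 and 180 CPM in the Eed mutant and 108, 129 and 138 CPM in the wild-type tumours. Pdgfrb and Myh11 overlapped between the groups, as did Cspg4, whose log2 fold change was -0.14. The 5 endothelial markers summed to 144 to 148 CPM in Eed mutant and 99.4 to 130 CPM in wild-type tumours. DESeq2 called 2 of them higher, Pecam1 and Kdr, against the same 3% of all genes, while Cdh5 and Cldn5 overlapped between the groups. The part of these cell types in the Fndc3c1 difference was not tested.

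The 6 oligodendrocyte markers summed to 326, 376 and 400 CPM in the Eed mutant tumours and 507, 1436 and 837 CPM in the wild-type tumours, and DESeq2 called all 6 lower, edgeR 0. DESeq2 called 2.3% of all genes lower, the share to set beside this count and those of the lists below. Wild-type replicate 2 was highest in these markers and lowest in Fndc3c1. The order within the groups did not otherwise run opposite: Eed mutant replicate 3 was the highest Eed mutant tumour in both. Wild-type replicate 1 had the lowest wild-type sum of these markers but not the highest wild-type Fndc3c1. The 6 fibroblast markers summed to 387 to 461 CPM in Eed mutant and 509 to 545 CPM in wild-type tumours, and DESeq2 called 1 of them, Dcn, lower. Without Pdgfra, the most abundant, the sums overlapped, at 144, 104 and 213 CPM in the Eed mutant tumours and 199.6, 156 and 184 CPM in the wild-type tumours. The sums overlapped between the groups for astrocytes, at 1018 to 1479 CPM in Eed mutant and 1220 to 1778 CPM in wild-type tumours, and for microglia, at 77.2 to 104 CPM in Eed mutant and 95.4 to 126 CPM in wild-type tumours. They overlapped also for Purkinje cells, at 166 to 251 CPM in Eed mutant and 239 to 465 CPM in wild-type tumours, and DESeq2 called 1 marker lower in each of the microglia and Purkinje lists. The part of these cell types in the Fndc3c1 difference was likewise not tested.

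**Figure D4:**
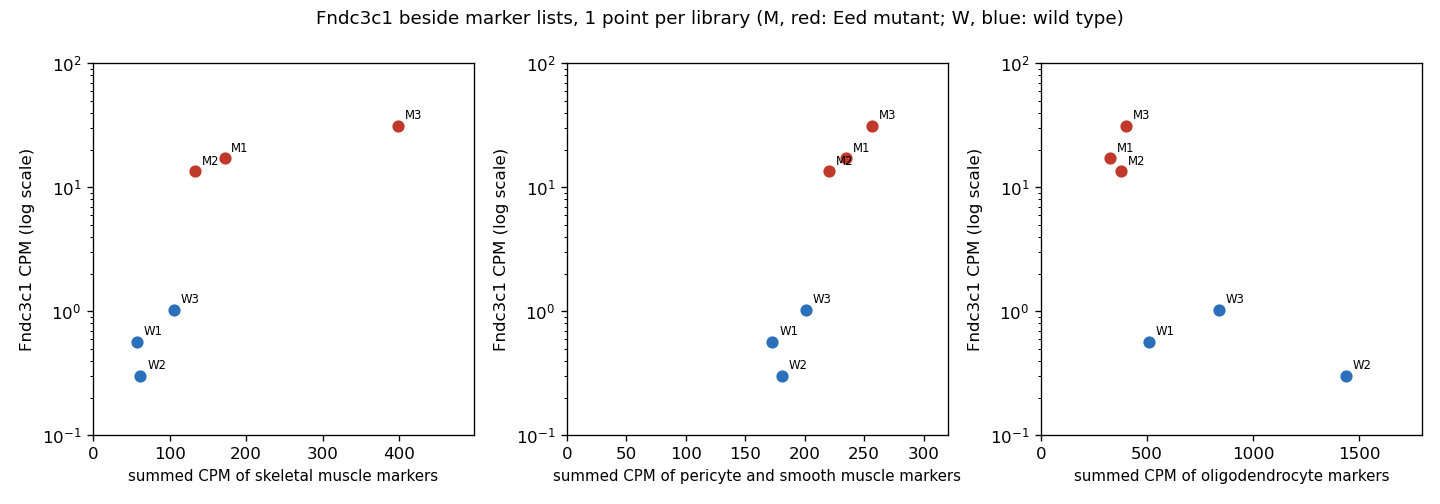
Fndc3c1 level in CPM on a log axis against the summed CPM of skeletal muscle markers, pericyte and smooth muscle markers, and oligodendrocyte markers, 1 point per library, Eed mutant tumours (M) in red and wild-type tumours (W) in blue. All Eed mutant tumours lie above 13 CPM of Fndc3c1, and the muscle and pericyte sums are higher and the oligodendrocyte sums lower in each of them than in any wild-type tumour. Most of each wild-type muscle sum is Myod1, which overlaps between the groups.

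The genes whose level followed each member most closely were found by Pearson's r of log2 CPM over the 6 libraries, among 15933 genes with a mean of at least 1 CPM. With 6 points that share libraries and depth, r is a description only. Fndc3c1 was chosen for its gap between the groups, so a gene that differs between them in the same way tends to get a high r with it. For Fndc3c1 these were Myl9 (r = 0.999), which encodes a smooth muscle myosin light chain, the apoptosis effector gene Bak1 (0.997), Cacul1 (0.996), Kank4 (0.992) and Spcs2 (0.992). Myl9 was at 8.87, 8.53 and 9.60 CPM in the Eed mutant tumours and 6.08, 5.79 and 6.43 CPM in the wild-type tumours, so its order over the libraries matched that of Fndc3c1 while its span was far narrower. For Fndc3b they were Ebna1bp2 (0.998), Arhgef17 (0.995), Rab8b (0.995), Pam16 (0.993) and Fli1 (0.992). For Fndc3a they included Oser1 (0.978), N4bp2l2 (0.978), Yeats4 (0.971) and Vwc2 (0.969). On log2(TPM + 1), 0 of the 5 genes remained among the closest 5 for each member.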

How the data were processed

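RNA-seq of 6 mouse medulloblastomas was analysed, 3 Eed mutant and 3 wild type, with 1 file per sample. Each file holds estimated counts and TPM per transcript, made by the authors with kallisto 0.43.1, per the file headers and the submitters' processing notes, which name GRCm38 and mm10. The sources used here do not give strand, read length or transcript release, so antisense pairs may share reads.

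Deposited estimated counts and TPM were summed per gene, and the counts rounded. Coordinates and transcripts come from GENCODE M21, which 147 of the 52550 genes did not match. Groups were compared with edgeR 4.0.16 (TMM, default filter, quasi-likelihood test, R 4.3.3), adjusted by Benjamini-Hochberg over 19145 genes at 0.05. CPM are TMM-scaled, differences are Eed mutant minus wild type, and SEs are those of the edgeR fit. All 3 members passed the filter, Fndc3c1 through the mutant libraries, since wild-type replicate 2 lay under the 0.38 CPM it asks. In simulated counts of 18796 genes, edgeR recovered 53.1% of 96 genes changed 2-fold and 90.9% of 99 changed 4-fold. Those counts were drawn independently for each gene, so the shares need not hold in the tumours, where edgeR called 0 genes. Transcript shares were compared by exact permutation in scipy 1.17.1, coding sequences aligned globally in Biopython 1.88. Intervals and floors cover counting error only, and the Wilson intervals leave out the uncertainty of assigning counts to transcripts.

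The members and gene lists were chosen with earlier results of these data known. Besides the members, the named genes are the tested neighbours, for each member the 5 genes with the highest r, and up to 3 genes with the smallest edgeR p in each list. Others (Pgk1 and Myl9 in detail, Bmp4, Hormad1, Myod1, Myh11, Cspg4, Cdh5, Cldn5, the untested neighbours and the genes ranked beside Fndc3c1) were named after their values were seen. A few genes within the rule are left out here. Alternatives were DESeq2 1.42.0, RLE size factors, scaling by library total, limma-trend (limma 3.58.1) on log2 TPM, other filters, the Xist level or file code as a term, the replicate number as a block, shares of TPM and leaving out each library.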

Additional observations from a re-analysis of the deposited data

How the results depend on the processing

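The log2 fold change of Fndc3c1 was positive in all 16 alternatives, and that of Fndc3b likewise; 14 and 16 of them moved the value by less than its SD between replicates. On log2(TPM + 1) and log2(TPM + 0.1) Fndc3c1 stood at 2.78 and 4.31 and Fndc3a at -0.0347 and -0.0356. Fndc3a, at 0.02, also lay between -0.01 and -0.00 with library size alone, with the Xist level or the file code as a term, and without Eed mutant replicate 2 or wild-type replicate 1. Leaving out each library gave 4.59 to 5.55 for Fndc3c1, 0.31 to 0.48 for Fndc3b and -0.00 to 0.05 for Fndc3a. It gave differences in share of 0.262 to 7.33 points for Fndc3c1-201, 1.20 to 1.58 for Fndc3a-201, -40.0 to -10.2 for Fndc3b-201 and 10.6 to 40.1 for Fndc3b-204, and 0 to 0 called neighbours and list genes. On TPM the difference was 20.2 points for Fndc3c1-201 and 2.00 points for Fndc3a-201, whose groups then overlapped. With DESeq2, 2 neighbours (both higher) and 23 of the 94 tested list genes (13 higher, 10 lower) were called in place of 0. Of all genes it called 3% higher and 2.3% lower. Among the genes most like each member, 0 of 5 remained on TPM. The cause was not tested. Low wild-type counts of Fndc3c1, 8 to 27 per library, limit the precision of its fold.

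The replicate numbers were not shown to pair the samples: the correlations of same-numbered deviations were 0.227, 0.0624 and -0.135. Of the 6 libraries, 3 correlated best with their own number. With so few libraries per group, these values cannot decide whether the numbers pair the samples. With the replicate block edgeR called 189 genes higher and 84 lower in place of 0, among them 1 neighbour and 11 list genes, and the log2 fold changes were 5.05 for Fndc3c1, 0.38 for Fndc3b and 0.02 for Fndc3a. Without Eed mutant replicate 2 edgeR called 6 genes higher and 3 lower, and without wild-type replicate 2 it called 2 higher and 2 lower.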
